A study of Macaca mulatta with 449 samples.

Results

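Medium spiny neurons, the projection neurons that make up most neurons of the striatum, carry dopamine and adenosine signals through cAMP. A set of 9 genes of that pathway, *ADORA2A*, *PPP1R1B*, *ADCY5*, *PDE1B*, *PDE10A*, *RGS9*, *GPR6*, *ARPP21* and *GNAL*, was chosen by symbol for this description, and 8 of the 9 were found among the 30807 genes of the count table. Of these 8, 7 had a symbol in the reference table of gene names, *ADORA2A* was named by the study's supplementary gene list alone, and *GNAL* is not analysed here. The gene identifiers were ENSMMUG00000000261 (*ADORA2A*), ENSMMUG00000001405 (*PPP1R1B*), ENSMMUG00000002230 (*ADCY5*), ENSMMUG00000000111 (*PDE1B*), ENSMMUG00000023614 (*PDE10A*), ENSMMUG00000014521 (*RGS9*), ENSMMUG00000014763 (*GPR6*) and ENSMMUG00000015959 (*ARPP21*).

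The study sequenced ribosomal RNA-depleted total RNA from brain regions of 8 healthy rhesus macaques (Macaca mulatta), and samples from 51 sub-regions, 8 animals each, entered the levels given here. Animals are named by the numbers of the labels. Of the males, animals 7 (4 years) and 8 (3.8 years) were young and animals 2 and 3 (10 years each) mid-aged, and of the females, animals 4 (3.2 years) and 10 (5 years) were young and animals 6 (10 years) and 11 (9.8 years) mid-aged. The striatum was sampled as the accumbens nucleus (ACb), caudate nucleus (CN) and putamen (PUT). The other groups were the globus pallidus (GP), olfactory bulb (OB), amygdala (AMY), substantia nigra (SN), ventral tegmental area (VTA), thalamus (THA), hypothalamus (HTHA), medulla oblongata (MO), pons (PON), cerebellar cortex (CBC), cerebellum vermis (CBV), entorhinal and perirhinal cortex (PA), dentate gyrus (DG), the hippocampal fields CA1 and CA3, corpus callosum (CC), pituitary (PIT) and 31 cortical sub-regions, which together form the cortex. Each sample is tissue of 1 animal. Read totals on genes ran from 7784678 to 31083490 over all samples (median 10698602) and from 7842729 to 12153518 over the 24 striatal samples (median 10200038). Levels are CPM, reads of a gene per 1000000 reads of a library whose size was scaled by the TMM method of edgeR, given as mean ± SD over the 8 animals, and the level of the cortex is the mean of its 31 sub-regions within each animal. CPM are not divided by gene length, so levels are compared between regions and not between genes. The labels of the tissues were checked by markers. The 6 medium spiny neuron markers in the table, none of them a member, summed to 3508 to 5359 CPM in ACb, 5305 to 6222 in CN and 3157 to 5191 in PUT, against 354 to 428 in the cortex. The 6 dopamine neuron markers summed to 5012 to 9418 CPM in SN and 216 to 1130.4 in VTA, against 216 to 299 in the cortex. VTA of animal 2 had the lowest of these sums in VTA, 216 CPM, below the 233 of that animal's own cortex and apart from 502 to 1130.4 in the other 7, so its label is not borne out by these markers. Its astrocyte markers were also the lowest in VTA (1225 CPM, with 2701 to 5698 in the others).

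In medium spiny neurons, dopamine D1 receptors and the adenosine receptors encoded by *ADORA2A* stimulate adenylyl cyclase through the olfactory-type G protein alpha subunit encoded by *GNAL*, while D2 receptors inhibit it. The cyclase ADCY5 makes the cAMP, the phosphodiesterases PDE10A and PDE1B break it down, and protein kinase A carries the signal to DARPP-32, the phosphatase inhibitor encoded by *PPP1R1B*. Neurons of the direct pathway carry D1 receptors, and neurons of the indirect pathway carry D2 receptors, this adenosine receptor and GPR6.

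All 8 genes had their 3 highest mean levels in the 3 striatal sub-regions, and no sample from outside the striatum reached the level of the lowest striatal sample for 7 of the 8. The exception was *PDE10A*, whose lowest striatal sample (animal 3, ACb) held 19.5 CPM and whose highest sample elsewhere (CBV) held 35.6. The genes were chosen as genes of striatal neurons, so their rank there is a description and was not tested. Since the samples are bulk tissue, fewer cells that carry a transcript and less transcript per cell cannot be told apart.

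**Figure D1:**
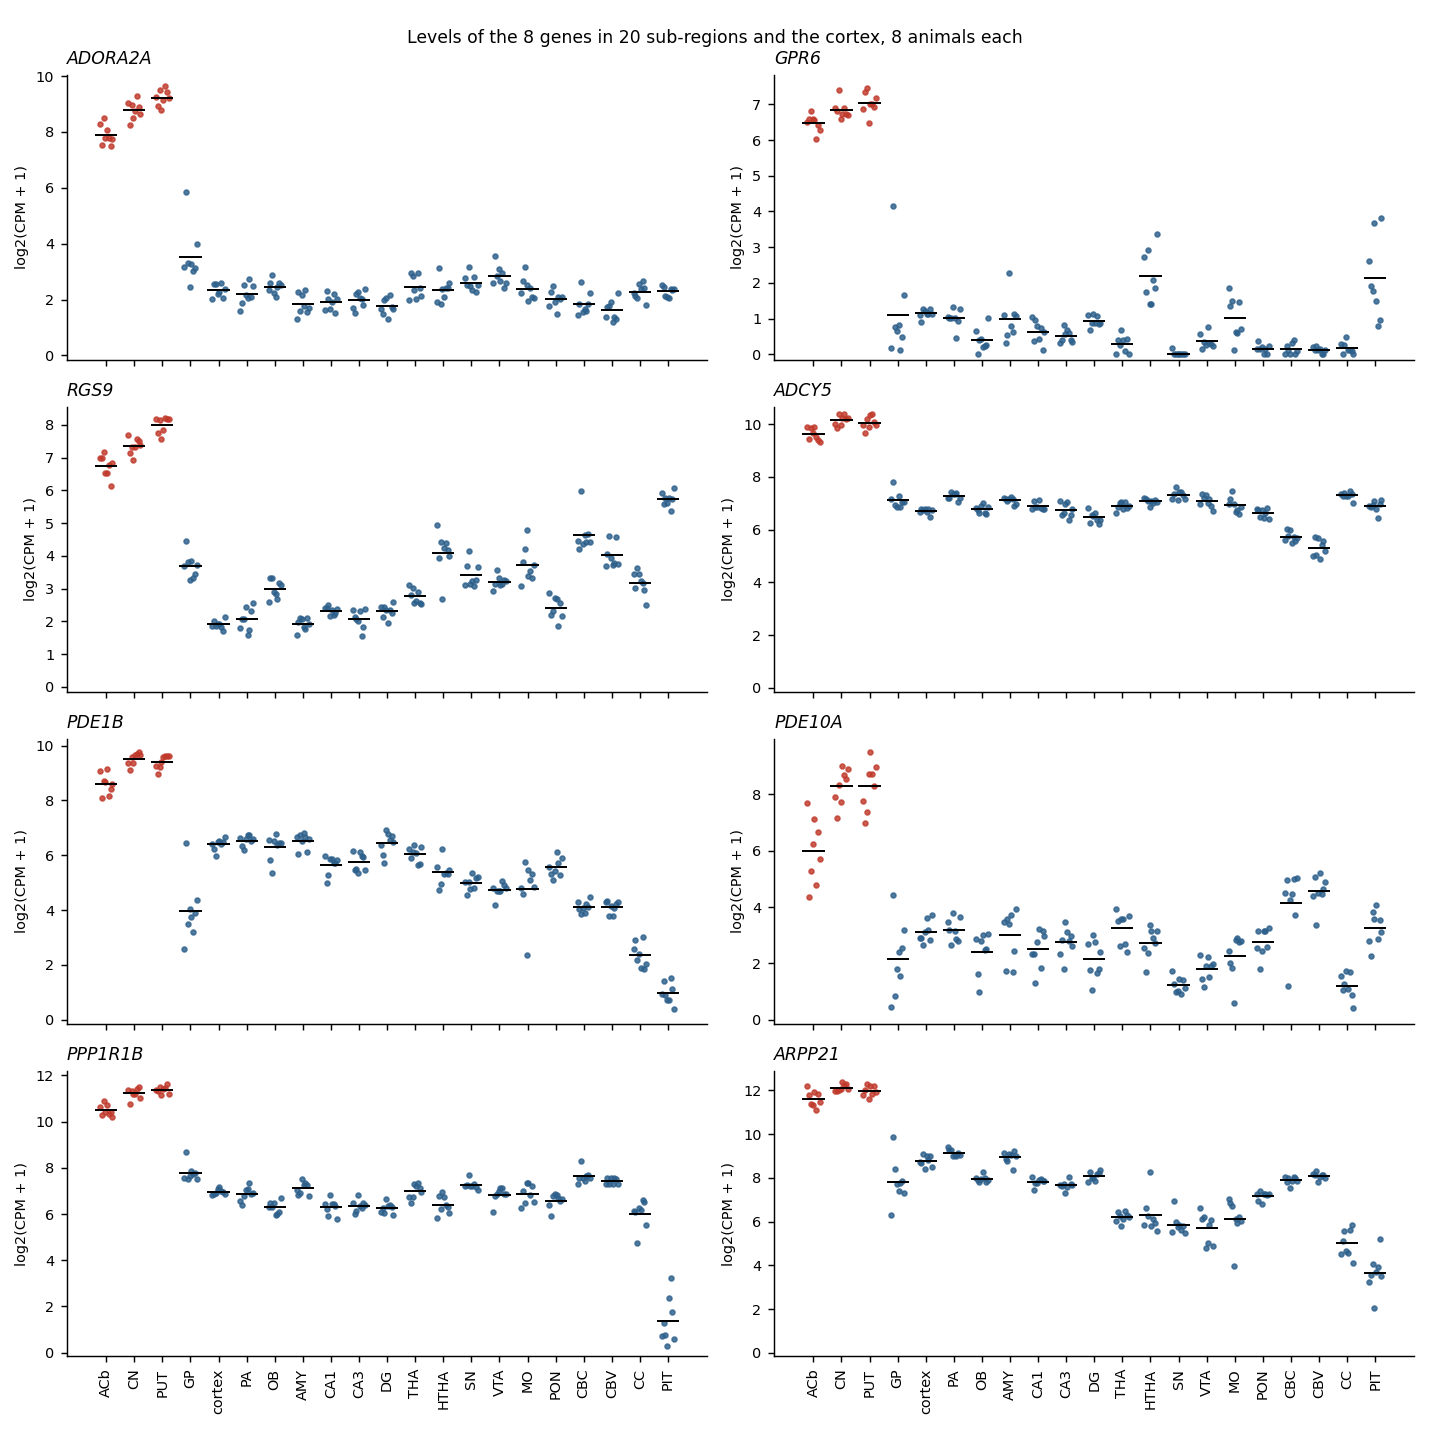
Level of each gene, as log2(CPM + 1), in 20 sub-regions and in the cortex (mean of 31 sub-regions); each point is 1 of 8 animals, black bars are means, and red marks the striatum. Striatal points lie above the others in every panel, apart from the low ACb points of *PDE10A*, and the globus pallidus has 1 high point (animal 3) in most panels.

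Of the receptors, *ADORA2A*, which encodes this adenosine receptor, ran from 178 to 362 CPM (median 219) in ACb, from 299 to 624 CPM (median 451) in CN and from 436 to 793 CPM (median 602) in PUT. The ranges of ACb and PUT did not overlap, and CN overlapped both. Outside the striatum GP was the highest, with 14.5 ± 17.1 CPM, followed by VTA (6.36 ± 2.02) and SN (5.2 ± 1.38), and the lowest was CBV (2.14 ± 0.832). The mean of the striatum, 435 ± 81.2 CPM, was 29.9 times that of GP and 107 times that of the cortex. Without animal 3, whose GP library stood apart (56.3 CPM), the first ratio was 52.7, with GP at 8.56 ± 3.09 CPM in the other 7 animals and still the highest group outside the striatum. *GPR6*, an orphan receptor with constitutive activity toward cAMP, had from 63.7 to 112 CPM (median 91.6) in ACb, from 95 to 167 CPM (median 108) in CN and from 89 to 175 CPM (median 128) in PUT, with overlap between all 3. Its next groups were PIT (4.86 ± 4.94) and HTHA (4.13 ± 2.76). It was lowest in SN, where 7 of 8 libraries had no read of it and the other had 2.

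*RGS9*, whose product shortens G protein signals downstream of D2 receptors, ran from 68.6 to 143 CPM (median 109.9) in ACb, from 119.6 to 206 CPM (median 163) in CN and from 187 to 297 CPM (median 285) in PUT, so that ACb and PUT did not overlap. Its striatal mean stood only 3.37 times above the next group, the smallest such ratio of the 8 genes: PIT held 52.6 ± 7.81 CPM, CBC 26.2 ± 14.9 and HTHA 17.4 ± 6.79, while the cortex held the lowest level of the 21 groups (2.77 ± 0.339). *ADCY5* ran from 632 to 957 CPM (median 770.4) in ACb, from 930.1 to 1330.2 CPM (median 1180.1) in CN and from 801 to 1336 CPM (median 1033) in PUT, where the 3 ranges overlapped. Elsewhere its group means lay within a narrow band, from 39.6 ± 9.19 in CBV to 159.8 ± 19 in SN, a 4.03-fold range, the smallest of the 8 genes.

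Of the phosphodiesterases, *PDE1B*, a calcium- and calmodulin-dependent enzyme, ran from 275 to 559 CPM (median 397) in ACb, from 549 to 876 CPM (median 780.3) in CN and from 499.8 to 783 CPM (median 721) in PUT, and only the highest ACb animal reached the range of CN. PA (92.6 ± 11.6), AMY (92.4 ± 16.9) and DG (89.1 ± 23) came next, and PIT was lowest at 1.02 ± 0.53 CPM. *PDE10A* varied most between animals. It ran from 19.5 to 204 CPM (median 63) in ACb, from 141 to 510.4 CPM (median 348) in CN and from 125 to 732 CPM (median 368) in PUT, and the SD of log2(CPM + 1) over the 8 animals was 1.15 in ACb, against 0.236 to 0.376 for the other 7 genes. Both cerebellar samples came next (CBV 24.2 ± 8.18 and CBC 20.8 ± 10.5), and SN (1.4 ± 0.47) was lowest.

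*PPP1R1B* ran from 1165 to 1873 CPM (median 1359) in ACb, from 1737 to 2879 CPM (median 2465) in CN and from 2259.7 to 3155 CPM (median 2663) in PUT, and ACb and PUT did not overlap. GP (228 ± 74.9), CBC (201 ± 47.1) and CBV (172 ± 16.4) followed, and PIT was lowest (2.32 ± 2.8). *ARPP21*, whose product is another cAMP-regulated phosphoprotein of striatal neurons, ran from 2204 to 4657 CPM (median 3180.2) in ACb, from 3979 to 5309 CPM (median 4253) in CN and from 3092 to 5028 CPM (median 3994) in PUT, where the 3 ranges overlapped. PA (570.4 ± 61.6), AMY (496 ± 85.7) and the cortex (446 ± 75) came next, and PIT was again lowest (13.8 ± 9.56). In the order of the 21 group means, the animals of neighbouring groups did not overlap at 0 to 3 of the 20 steps per gene, and overlapped at the others. At 15 to 17 of the 20 steps the means of neighbours differed by less than the larger of their SDs. Among the overlapping neighbours whose means lay further apart were CN and ACb for *ADORA2A* and PUT and CN for *RGS9*.

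To find whether the genes differ within the striatum, ACb, CN and PUT were compared by edgeR's quasi-likelihood test with the animal as a block, on the 14827 genes that passed the filter on low counts, all 8 genes included. FDR is the Benjamini-Hochberg adjusted p over all genes tested, and log2FC is the fitted difference in log2 expression ± SE. All 8 genes were lower in ACb than in CN (FDR < 0.05), where 16.7% of all genes tested were lower, and all 8 were lower in ACb than in PUT, where 22.4% were. The median log2FC of the 8 was -0.66 against CN and -0.83 against PUT, beside 0.012 and 0.0025 over all genes. Of the 8, 2 were lower in CN than in PUT (15.3% of all genes) and 0 were higher.

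*PDE10A* had the largest difference. ACb held 81.3 ± 63.5 CPM, CN 337 ± 132 and PUT 362 ± 201, and ACb was lower than both in 8 of 8 animals (log2FC -2.23 ± 0.33, FDR = 5.72e-05 against CN and log2FC -2.24 ± 0.33, FDR = 1.34e-05 against PUT). The ratio of ACb to CN ran from 0.0643 to 0.857 over the animals, with the highest ratio in animal 2. The groups overlapped, since ACb of animal 2 (204 CPM) lay above CN and PUT of animal 3 (141 and 125).

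*ADORA2A* and *RGS9* rose in the order ACb, CN, PUT in every animal. *ADORA2A* had 244 ± 64.7, 451 ± 102 and 610.2 ± 118 CPM, with log2FC -1.32 ± 0.11, FDR = 1.01e-08 for ACb against PUT, log2FC -0.87 ± 0.11, FDR = 1.05e-05 for ACb against CN and log2FC -0.45 ± 0.11, FDR = 0.00303 for CN against PUT. The animals of ACb and PUT did not overlap. *RGS9* had 108 ± 23.8, 165 ± 27.5 and 259 ± 43.1 CPM, with log2FC -1.25 ± 0.11, FDR = 2.31e-08 for ACb against PUT, log2FC -0.59 ± 0.11, FDR = 4.45e-04 for ACb against CN and log2FC -0.66 ± 0.11, FDR = 1.19e-04 for CN against PUT. ACb and PUT did not overlap here either. With *PDE10A*, these were the genes that passed a 2-fold threshold as well, 3 of 8 between ACb and PUT (3.6% of all genes) and 1 of 8, *PDE10A*, between ACb and CN (2.19%).

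*PPP1R1B* was 1.66-fold lower in ACb than in CN and 1.84-fold lower than in PUT, in 8 of 8 animals (log2FC -0.73 ± 0.08, FDR = 3.43e-06 and log2FC -0.88 ± 0.08, FDR = 4.08e-08). *PDE1B* (log2FC -0.89 ± 0.11, FDR = 1.28e-05 against CN) and *ADCY5* (log2FC -0.51 ± 0.087, FDR = 2.28e-04) were also lower in ACb in 8 of 8 animals. *GPR6* and *ARPP21* were lower in 7 of 8 animals, by 1.28- and 1.39-fold against CN (FDR = 0.00714 and 0.00398), and against PUT by 1.47- and 1.27-fold (FDR = 7.38e-05 and 0.0187). The exceptions were animal 6 for *GPR6*, with 95.6, 95 and 89 CPM in ACb, CN and PUT, and animal 2 for *ARPP21*, with 4657, 3979 and 3597. Between CN and PUT, *PDE1B*, *ADCY5*, *GPR6*, *ARPP21*, *PPP1R1B* and *PDE10A* did not pass the threshold. The log2FC of the first 5 lay between -0.20 (*GPR6*) and 0.13 (*ARPP21*), with SE of 0.08 to 0.11, and that of *PDE10A* was -0.0087 ± 0.30. The call of *ARPP21* between ACb and PUT was lost without animal 4 (log2FC -0.26, FDR = 0.0721), 7 (log2FC -0.34, FDR = 0.0548) or 11 (log2FC -0.31, FDR = 0.0722). A fit of all 21 groups in place of the 3 striatal ones changed the gene filter, the normalization and the animal block as well as the spread. In it the differences of *GPR6* (log2FC -0.39, FDR = 0.341 against CN and log2FC -0.56, FDR = 0.131 against PUT) and *ARPP21* (log2FC -0.48, FDR = 0.144 and log2FC -0.31, FDR = 0.33) and that of *ADORA2A* between CN and PUT (log2FC -0.40, FDR = 0.108) kept their direction but not their calls.

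**Figure D2:**
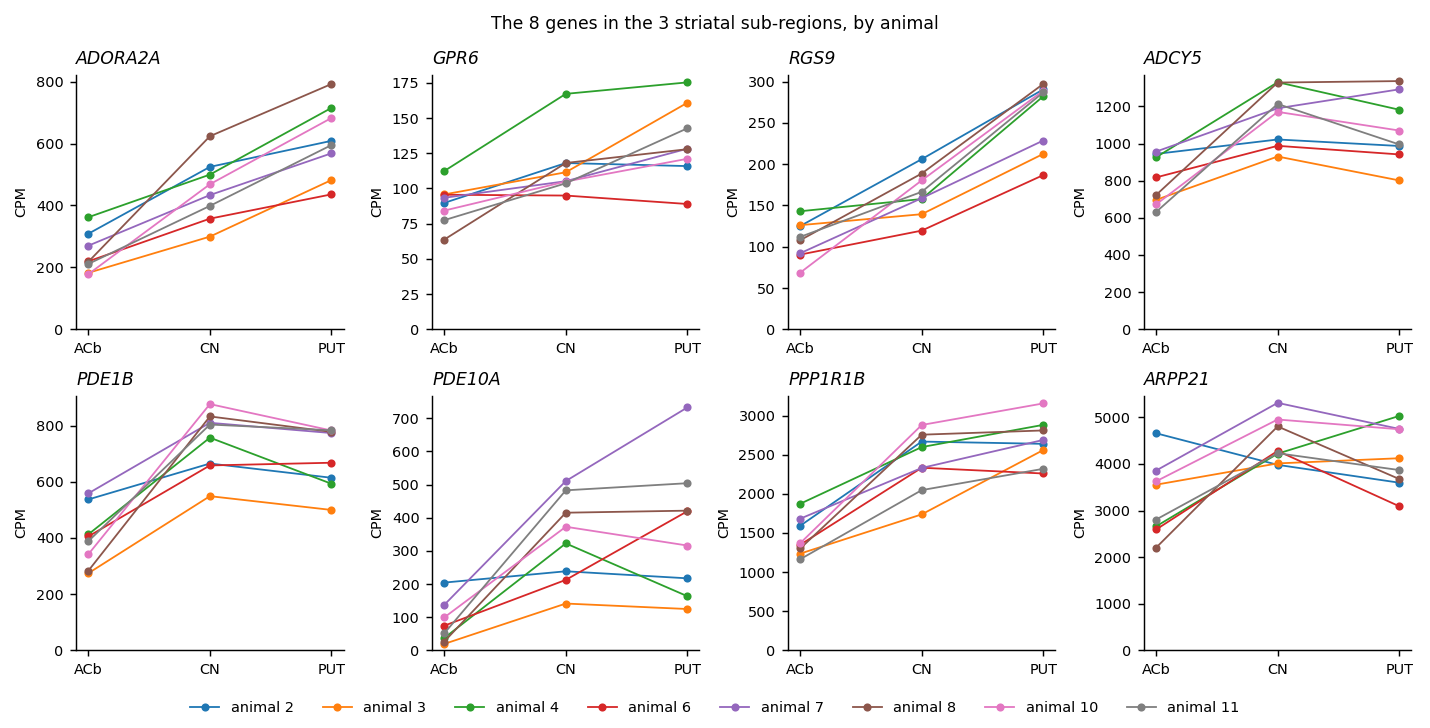
CPM of each gene (linear axis from 0) in ACb, CN and PUT; each line joins the 3 samples of 1 animal, coloured by animal number. Lines rise from ACb to CN in 8 of 8 animals for 6 genes and in 7 of 8 for *GPR6* and *ARPP21*, and those of *ADORA2A* and *RGS9* rise further to PUT in all 8.

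Marker genes of cell types were read in the same samples. Of the 6 medium spiny neuron markers, 5 were lower in ACb than in CN and 3 lower but 2 higher in ACb than in PUT. *DRD1* (log2FC -0.72 ± 0.085), *DRD2* (-0.86 ± 0.10) and *TAC1* (-0.81 ± 0.11) were lower in ACb than in PUT, while *PDYN* (2.46 ± 0.29) and *PENK* (0.59 ± 0.15) were higher. All 8 oligodendrocyte markers were higher in PUT than in CN and than in ACb, with a summed level of 12830.5 to 21810.2 CPM in PUT, 3642 to 8193 in CN and 2315 to 7393 in ACb. The 8 markers of cortical projection neurons summed to 14.3 to 21.7 CPM in CN, but to 345 in ACb of animal 10 and 174 in PUT of animal 3, beside 1113 to 1284 in the cortex. Without animal 10, 18 of the 24 gene and pair combinations passed FDR < 0.05, and without animal 3, 18, against 18 with all animals. Endothelial markers were lower in ACb than in CN (4 of 5) and PUT (5 of 5), and the 4 microglial markers, with median log2FC from -0.12 to 0.17, did not pass in any pair. Of 6 astrocyte markers, 1 was lower in ACb than in CN, and 2 were higher and 1 lower than in PUT. Of 7 striatal interneuron markers, 3 were higher and 1 lower in ACb than in CN, and 2 higher and 3 lower than in PUT. The part of the other cell types in the differences of the 8 genes was not tested.

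Outside the striatum each of 17 groups was compared with the cortex, in 1 fit of 21 groups of 8 libraries with the animal as a block, and a gene was called at FDR < 0.05 and a fold above 2. All 8 genes were among the 16906 tested. Of the 136 combinations of gene and group, 50 were called, 16 higher and 34 lower than the cortex. The cortical libraries were shared by all 17 comparisons. By group, 5 of 8 genes were called in SN (27.9% of all genes), 5 in VTA (28.2%), 5 in CC (44.3%), 5 in PIT (44.7%) and 5 in CBV (27%). HTHA (18.6%) and CBC (24.9%) had 4 each, and GP (34.8%), THA (19.8%) and MO (28.4%) had 3 each. OB (22.5%), PON (25%) and CA3 (12.5%) had 2 each, and DG (15%) and CA1 (11.8%) had 1 each. AMY (9.74%) and PA (8.93%) had 0 by edgeR and by DESeq2, with 2 and 1 genes at an unadjusted p under 0.05. Over all 17 groups, 23.8% of the combinations of any gene tested and a group were called. The median log2FC over the 8 genes ran from -1.69 in CC to 0.57 in GP, against -0.045 to 0.024 over all genes. GP, with the highest median log2FC, was among several groups in which the 8 oligodendrocyte markers stood above the cortex (sums in GP given below). They summed to 104884 ± 8641 CPM in CC, 55396 ± 7109 in VTA, 53399 ± 20109 in MO, 40217 ± 7403 in PON, 25205 ± 5932 in SN and 16794 ± 4234 in THA, against 3143 ± 313 in the cortex and 36.5 ± 12.6 in PIT, and their part in the lower and higher calls there was not tested. Without animal 2, whose VTA library lacked raised dopamine neuron markers, VTA again had 5 called, with *PDE10A* at log2FC -1.81, *ARPP21* at -3.25, *GPR6* at -2.28, *PDE1B* at -1.75 and *RGS9* at 1.56.

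**Figure D3:**
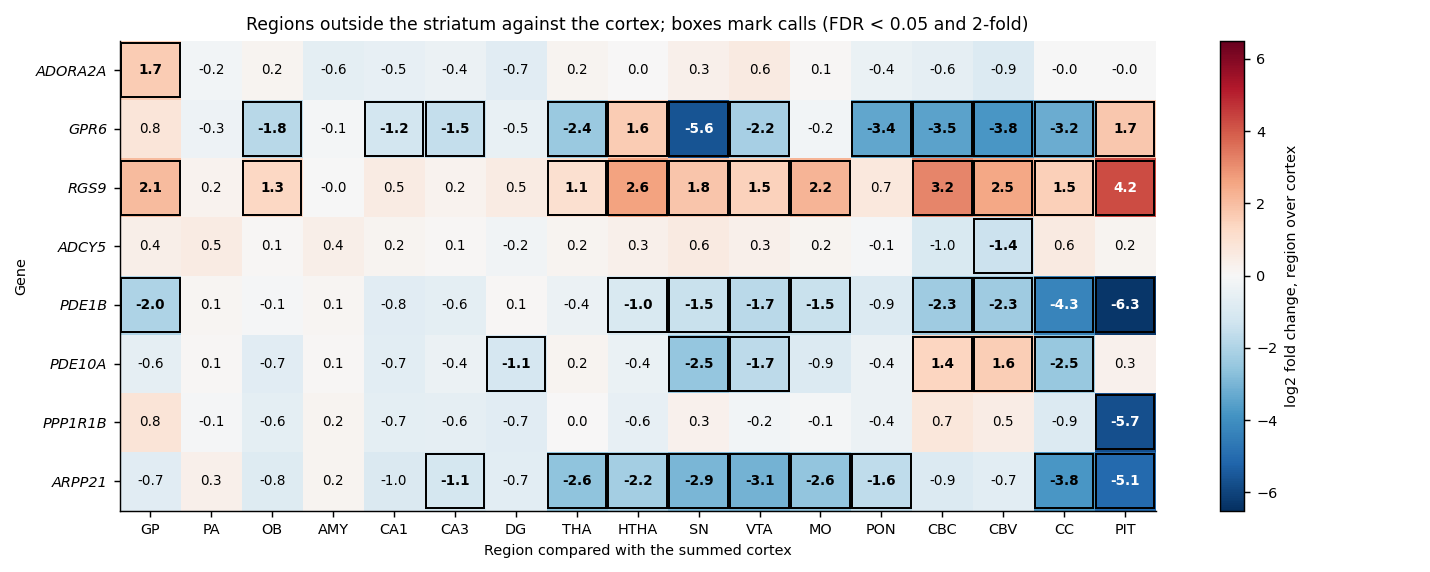
Fitted log2 fold change of each gene in each of 17 groups over the cortex (red higher, blue lower); boxed, bold values passed FDR < 0.05 and 2-fold. *RGS9* is higher in 11 groups and lower in none, *GPR6* splits between 2 higher and 10 lower groups, and *PDE1B* and *ARPP21* are called only lower.

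*RGS9* was called higher than the cortex in 11 of 17 groups and lower in 0. The largest difference was in PIT (52.6 ± 7.81 against 2.77 ± 0.339 CPM, log2FC 4.22 ± 0.18, FDR = 1.21e-48), followed by CBC (log2FC 3.19 ± 0.18, FDR = 4.28e-37) and HTHA (log2FC 2.62 ± 0.17, FDR = 5.52e-29), each higher in 8 of 8 animals with no overlap. AMY (2.8 ± 0.464 CPM) did not pass the test against the cortex (log2FC -0.0032 ± 0.19, FDR = 0.992). In CBC, animal 4 stood apart at 62.6 CPM against 17.7 to 24.2 in the others, and without it the log2FC was 2.89. The difference in THA (log2FC 1.05 ± 0.18, FDR = 1.12e-07) passed 2-fold narrowly and fell below it without animal 2 (log2FC 0.98, FDR = 2.29e-06) or 4 (log2FC 0.999, FDR = 1.46e-06).

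*GPR6* was lower than the cortex (1.22 ± 0.178 CPM) in 10 groups and higher in 2. HTHA, from 1.66 to 9.27 CPM (median 2.92), lay above the cortex, from 0.859 to 1.42 CPM (median 1.19), in 8 of 8 animals with no overlap (log2FC 1.63 ± 0.33, FDR = 1.05e-05). PIT, from 0.722 to 13.1 CPM (median 2.58), lay above it in 6 of 8 (log2FC 1.73 ± 0.33, FDR = 1.36e-06). The lower groups rest on few reads, 8 to 50 over 8 libraries in OB, VTA, THA, PON, CBC, CBV, CA1, CA3 and CC. In SN there were 2 reads in all, so that the pooled level in the cortex was 54.8 times that in SN, with a 95% exact (Clopper-Pearson) interval of 15.2 to 453 that covers counting error only. In CA1 the call (FDR = 0.0336) was lost without animal 7, 10 or 11 (FDR = 0.0756, 0.127 and 0.0603 by edgeR) and by DESeq2 (FDR = 0.0503).

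*ADORA2A* was called in GP alone (14.5 ± 17.1 against 4.08 ± 0.788 CPM, log2FC 1.67 ± 0.20, FDR = 1.12e-13), higher in 8 of 8 animals, with ranges that overlapped. It was also higher in VTA, below the 2-fold threshold (log2FC 0.58 ± 0.20, FDR = 0.0091, 8 of 8 animals). *ADCY5* was called only in CBV, as lower (39.6 ± 9.19 against 104 ± 7.06 CPM, log2FC -1.37 ± 0.10, FDR = 3.08e-25), and CBC just missed 2-fold (log2FC -0.97 ± 0.10, FDR = 7.50e-16), which it passed without animal 3 (log2FC -1.04) or 6 (log2FC -1.001). In SN, CC, PA, AMY, GP, HTHA and VTA *ADCY5* was higher at FDR < 0.05 by 1.25- to 1.5-fold.

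*PDE1B* was called lower in 9 groups and higher in 0. It fell most in PIT (1.02 ± 0.53 against 84.1 ± 11.3 CPM, log2FC -6.34 ± 0.32, FDR = 1.34e-41) and CC (4.37 ± 1.73 CPM, log2FC -4.28 ± 0.27, FDR = 3.75e-32), in 8 of 8 animals with no overlap. In HTHA (log2FC -1.01 ± 0.23, FDR = 5.97e-05) its call was lost without animal 3, 7, 10 or 11, at log2FC -0.97, -0.9985, -0.97 and -0.98, and by DESeq2 (log2FC -0.98, FDR = 1.05e-04). *PDE10A* went both ways. It was higher in CBV (log2FC 1.61 ± 0.32, FDR = 3.35e-06, 8 of 8 animals) and CBC (log2FC 1.38 ± 0.31, FDR = 6.09e-05, 7 of 8), and lower in SN (log2FC -2.51 ± 0.40, FDR = 2.21e-08), CC (log2FC -2.47 ± 0.40, FDR = 1.72e-08), VTA (log2FC -1.68 ± 0.37, FDR = 3.59e-05) and DG (log2FC -1.09 ± 0.35, FDR = 0.0066). The call in DG was lost without animal 4 (log2FC -0.98) or 8 (log2FC -0.9964). In the cerebellum the phosphodiesterases stood on opposite sides of the cortex, with *PDE1B* lower (log2FC -2.34 ± 0.24, FDR = 1.01e-16 in CBC).

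*PPP1R1B* was called in PIT alone (2.32 ± 2.8 against 124 ± 10.4 CPM, log2FC -5.69 ± 0.23, FDR = 1.61e-52), where PIT ran from 0.221 to 8.45 CPM and the cortex from 113 to 142, and without animal 8, the highest in PIT, at log2FC -6.32. Its higher values at FDR < 0.05 were in GP (log2FC 0.82 ± 0.17, FDR = 1.18e-05), CBC (log2FC 0.72 ± 0.17, FDR = 1.55e-04) and CBV (log2FC 0.49 ± 0.17, FDR = 0.00969), in 8 of 8 animals each with no overlap. *ARPP21* was called lower in 9 groups, by 2.17-fold in CA3 to 33.2-fold in PIT, and higher in 0. SN (60.7 ± 26 CPM), VTA (55.9 ± 25.3), THA (73.5 ± 10.8) and MO (79.1 ± 37) each lay below the cortex (446 ± 75) in 8 of 8 animals. In HTHA (95.6 ± 86.6) animal 6 held 306 CPM against 46.6 to 97.7 in the others. The cortical projection neuron markers of that library summed to 766 CPM, with 30.8 to 38.2 in the other 7 and 1113 to 1284 in the cortex. Without animal 6 the log2FC of *ARPP21* in HTHA was -2.83 (FDR = 8.13e-22).

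In GP, the pallidal target of striatal axons, part of the result depended on 1 library and on the groups in the fit. GP of animal 3 held 56.3 CPM of *ADORA2A* against 4.52 to 14.8 in the other 7 animals. It held 16.6 CPM of *GPR6* (0.0812 to 2.16 in the others), 20.6 of *PDE10A* (0.371 to 8.08), 85.9 of *PDE1B* (4.95 to 19.9) and 934 of *ARPP21* (77.9 to 342). It was the highest of the 8 libraries for all 8 genes. The 6 medium spiny neuron markers of the same library summed to 745 CPM, against 73.8 to 155 in the other 7, and *DRD1* stood at 63.8 against 1.7 to 14.3 CPM and *PENK* at 271 against 9.52 to 42.6. Its oligodendrocyte markers were the lowest of the 8 (50368 CPM of 50368 to 107033). The part of these cells in the values was not tested. With all animals *GPR6* passed FDR < 0.05 as higher in GP than in the cortex (log2FC 0.77 ± 0.36, FDR = 0.0474) although 6 of 8 animals were lower, *ARPP21* was lower (log2FC -0.75 ± 0.24, FDR = 0.00444) and *PDE10A* did not pass (log2FC -0.60 ± 0.34, FDR = 0.106). Without animal 3, *GPR6* turned to log2FC -0.92, FDR = 0.0237, *ARPP21* was at log2FC -1.25, FDR = 4.22e-06 and *PDE10A* at log2FC -1.36, FDR = 1.35e-04, so that the last 2 passed the 2-fold threshold. *ADORA2A* was at log2FC 1.05, FDR = 3.98e-09, *RGS9* at log2FC 1.93, FDR = 1.35e-17 and *PDE1B* at log2FC -2.88, FDR = 1.26e-25, and these 3 kept their calls. With all 8 animals but only GP and the cortex in the fit, *ARPP21* (log2FC -1.04, FDR = 0.00721) was called lower too. So was *PDE10A* (log2FC -1.15, FDR = 0.0334), while *GPR6* did not pass (log2FC -0.36, FDR = 0.672).

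A set of 6 pairs of related groups was compared in the same fit. GP held 6 of 8 genes at a called higher level than CC, where 1772 of all 16906 genes were called higher and 15.4% in either direction. Among the 6 were *PPP1R1B* with log2FC 1.73 ± 0.18, FDR = 9.77e-16 and *ARPP21* with log2FC 3.02 ± 0.27, FDR = 5.14e-20, in 8 of 8 animals each with no overlap. Without animal 3 these were at log2FC 1.56, FDR = 2.88e-12 and log2FC 2.56, FDR = 2.47e-15. The other 4 moved more without that library, *PDE1B* from log2FC 2.25 to 1.56, *ADORA2A* from 1.70 to 1.05, *GPR6* from 4.02 to 2.23 and *PDE10A* from 1.88 to 1.12, and all 4 kept their calls. With only GP and CC in the fit, *PDE10A* lost its call (log2FC 1.35, FDR = 0.106). GP over SN had 4 called, all higher, *GPR6*, *ARPP21*, *PDE10A* and *ADORA2A*. Of all genes, 821 were called higher there, and 12.1% were called in either direction. *ARPP21* was higher in 8 of 8 animals (log2FC 2.20 ± 0.26, FDR = 2.54e-13, and log2FC 1.92, FDR = 1.96e-10 without animal 3), and *ADORA2A* in 7 of 8 (log2FC 1.35 ± 0.22, FDR = 4.15e-08, and log2FC 0.70, FDR = 5.01e-04 without animal 3). *PDE10A* went from log2FC 1.91 to 1.19, and *PDE1B*, not called with all animals (log2FC -0.57 ± 0.24, FDR = 0.0386), was then lower in GP (log2FC -1.44, FDR = 1.46e-09). With only GP and SN in the fit, *ADORA2A* fell below 2-fold (log2FC 0.97, FDR = 0.0335) and *PDE1B* was lower (log2FC -1.18, FDR = 0.0223). The fitted difference of *GPR6* rests on the 2 reads in SN. No member was called in SN over VTA (5.77%), AMY over PA (3.97%), CBV over CBC (0.213%) or DG over CA1 (4.04%), by edgeR. DESeq2 called *GPR6* lower in SN than in VTA (log2FC -3.41, FDR = 0.00129), again on 2 reads in SN, and called no member in the other 3 of these pairs. By edgeR that call was also made without the replicate block (log2FC -3.44, FDR = 0.0438) and without animal 3 (log2FC -3.47, FDR = 0.0225). It was made without animal 2 too (FDR = 0.0457), but both reads in SN are of that animal, so that SN was then at 0 and the fitted fold is no estimate. Below 2-fold, *RGS9* and *ADCY5* were lower in CBV than in CBC in 8 of 8 animals (log2FC -0.70 ± 0.17, FDR = 0.0147 and log2FC -0.40 ± 0.10, FDR = 0.0259), and *PDE1B* was higher in DG than in CA1 in 8 of 8 (log2FC 0.83 ± 0.23, FDR = 0.00398). *ADCY5* was lower in DG than in CA1 in 7 of 8 (log2FC -0.42 ± 0.10, FDR = 0.00118) and higher in SN than in VTA in 6 of 8 (log2FC 0.26 ± 0.10, FDR = 0.0454), and the latter did not pass without animal 2 (FDR = 0.063 by edgeR). At an unadjusted p < 0.05, the 4 pairs had 3, 0, 2 and 2 of 8 genes.

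Within the cortex, the 31 sub-regions were summed by lobe in each animal, and each of 5 lobes was compared with the mean of the other 4 among 17478 genes. Of the 40 combinations, 17 passed FDR < 0.05 by edgeR and 18 by DESeq2, and 0 reached 2-fold by either. The frontal lobe was higher for 5 of 8 genes, *GPR6*, *RGS9*, *PDE1B*, *ADORA2A* and *ADCY5*. Of all 17478 genes, 4012 were higher there, and 44% passed in either direction. *PDE1B* stood at 91.1 ± 12.1 against 78.9 ± 10.6 CPM in the other 4 lobes, log2FC 0.23 ± 0.032, FDR = 2.33e-07, higher in 8 of 8 animals. *RGS9* (log2FC 0.27 ± 0.07, FDR = 0.00208) and *ADORA2A* (log2FC 0.20 ± 0.065, FDR = 0.0136) were higher in 7 of 8 animals each.

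The occipital lobe had 5 of 8 past the threshold (56.3%), of which *PDE1B* (60.2 ± 9.36 against 86.6 ± 11.3 CPM in the other 4 lobes, log2FC -0.51 ± 0.034, FDR = 3.83e-15), *ADCY5* (log2FC -0.27 ± 0.033, FDR = 1.05e-08), *GPR6* and *ARPP21* were lower in 8 of 8 animals and *PPP1R1B* was higher in 5 of 8 (log2FC 0.11 ± 0.046, FDR = 0.0332). The last call was lost without animal 2, 3, 7, 8, 10 or 11 (FDR = 0.062 without animal 3 to 0.369 without animal 11, by edgeR). In the temporal lobe, with 4 of 8 (25.7%), *ARPP21* was higher in 8 of 8 animals (589 ± 128 against 419 ± 63.3 CPM in the other 4 lobes, log2FC 0.47 ± 0.037, FDR = 1.04e-11) and so was *PDE1B*, while *RGS9* (log2FC -0.37 ± 0.08, FDR = 7.54e-04) and *ADORA2A* (log2FC -0.22 ± 0.071, FDR = 0.0213) were lower. That of *ADORA2A* was lost without animal 2, 6 or 7 (FDR = 0.114, 0.063 and 0.057 by edgeR). The parietal lobe had 2 of 8, both lower, *ARPP21* and *GPR6*, where 867 of all 17478 genes were lower and 9.64% passed in either direction. In the limbic cortex, where 1488 of all genes were higher and 15.9% passed in either direction, 1 of 8 passed. It was *GPR6*, which was higher (log2FC 0.39 ± 0.10, FDR = 0.00871). Without animal 8 it did not pass (log2FC 0.33, FDR = 0.0621). *ADCY5* missed the threshold there (log2FC 0.088) and passed it as higher by DESeq2 (log2FC 0.092, FDR = 0.0279), with the size factors of DESeq2 in edgeR (FDR = 0.0437) and without animal 7 (FDR = 0.0261) or 11 (FDR = 0.038). *PDE10A* passed in 0 of 5 lobes with all animals, and without animal 11 it passed as lower in the limbic cortex (log2FC -0.32, FDR = 0.0271) and higher in the occipital lobe (log2FC 0.25, FDR = 0.0398).

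The widest differences between cortical sub-regions were those of *GPR6*, at low levels. It ran from 0.265 ± 0.217 CPM in the superior precentral gyrus (SPrCG) to 2.83 ± 1.1 in the insula (INS), a 10.7-fold range, with the ventromedial prefrontal cortex (vmPFC, 2.42), temporal polar gyrus (TPG, 2.41), anterior cingular gyrus (ACG, 2.39), posterior cingular gyrus (PCG, 2.21) and medial orbital gyrus (MOG, 2.12) next. For the other 7 genes the highest sub-region was 1.32 to 2.04 times the lowest. *ADORA2A* was highest in the inferior and superior precentral gyri (IPrCG, 5.85 ± 1.18, and SPrCG, 5.47 ± 1.38 CPM), where *GPR6* was low (0.494 ± 0.196 and 0.265 ± 0.217). *ARPP21* was highest in TPG (647 ± 106) and the inferior temporal gyrus (ITG, 632 ± 169.8), and *PDE1B* lowest in the posterior superior occipital gyrus (pSOG, 54.1 ± 8.94). Single sub-regions of the cortex were not tested against each other.

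**Figure D4:**
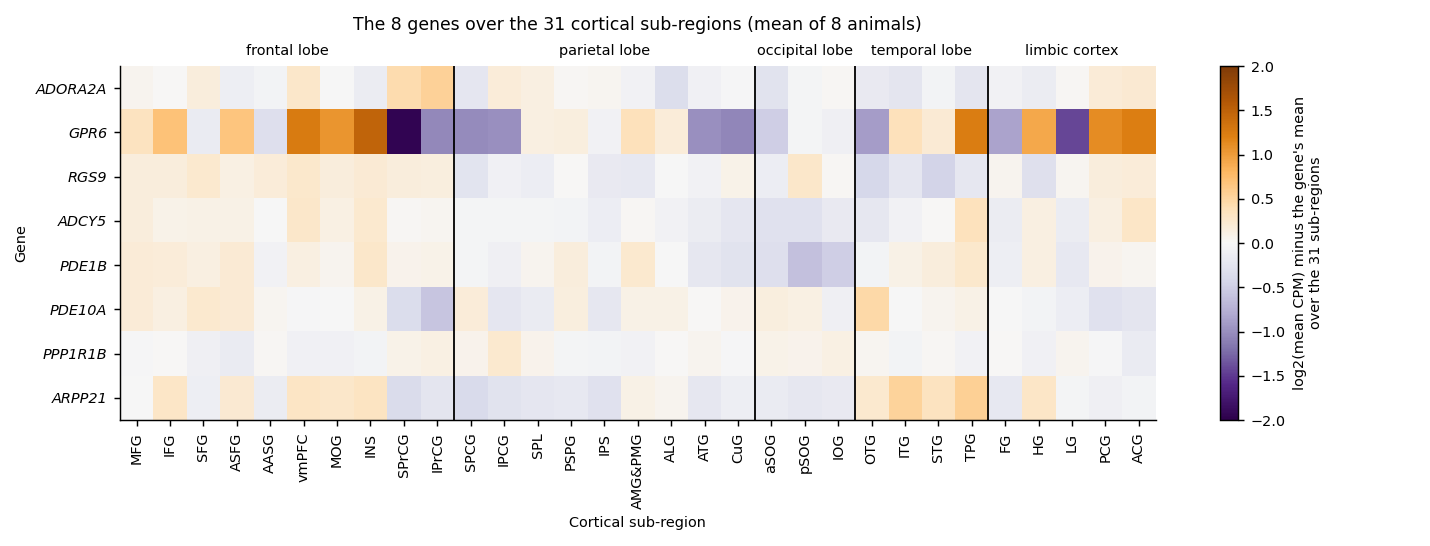
Mean level of each gene in 31 cortical sub-regions (8 animals), as log2(CPM) minus the gene's mean over the 31, with lobes separated by lines. The row of *GPR6* has the strongest colours, high in INS, vmPFC, TPG and ACG and low in SPrCG and LG (lingual gyrus), *ARPP21* is high across the temporal lobe, and *PDE1B* is low in the occipital lobe.

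Young and mid-aged animals were compared in the striatum, with ACb, CN and PUT summed within each animal and also one by one, and with sex as a covariate. No member was called in the 32 combinations of gene and tissue at FDR < 0.1 and 2-fold, by edgeR or by DESeq2, and 1 of 8 in the summed striatum, 0 in ACb, 2 in CN and 1 in PUT had an unadjusted p under 0.05 by edgeR. Over all genes the share called was 0% in the summed striatum, 0% in ACb, 0.00669% in CN and 0% in PUT, and in the summed striatum 895 of 16419 genes had an unadjusted p under 0.05. All 8 fitted differences were negative there, with a median log2FC of -0.20 beside 0.0032 over all genes. The smallest unadjusted p was that of *ADCY5*, where the mean of the 3 sub-regions was 1146, 1146, 1129 and 971 CPM in the young animals 4, 7, 8 and 10 and 984, 809, 916 and 947 in the mid-aged animals 2, 3, 6 and 11 (log2FC -0.25 ± 0.11, unadjusted p from edgeR's quasi-likelihood test 0.0412, FDR = 0.906). The groups overlapped in animal 2. *ADORA2A* had 526, 424, 545 and 443 CPM in the young and 481, 321, 338 and 402 in the mid-aged animals (log2FC -0.29 ± 0.15, FDR = 0.908), with overlap as well. The SE of the 8 differences were 0.11 to 0.37 on the log2 scale, and each difference was below the 2-fold that a call required.

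Female and male animals were compared in the same way, with age stage as a covariate. No member was called in 32 combinations by edgeR or by DESeq2, beside 0.104% of all genes in the summed striatum, 0.0872% in ACb, 0.12% in CN and 0.103% in PUT. The log2FC of the 8 genes in the summed striatum lay between -0.094 and 0.071, and 0 of 8 had an unadjusted p under 0.05, against 346 of 16419 genes.

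Other genes of the same pathway were taken by role from a list of 86 that left out the members, and 77 were tested in the striatum (mean of ACb, CN and PUT) against the cortex. At FDR < 0.05 and 2-fold, 16 were higher (8.15% of all genes tested) and 15 lower (8.7%), and 46 were not called. The median log2FC was 0.0035, beside 0.011 over all genes. The list includes genes known from striatal neurons, as *DRD1*, *DRD2*, *PTPN5* and *GNG7*, and was chosen with earlier results of these data known. The counts and calls are therefore a description of the list.

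Receptors had 6 of 11 higher and 1 lower. The D2 receptor gene *DRD2* stood at 278 ± 43.6 against 2.19 ± 0.967 CPM, log2FC 6.99 ± 0.40, FDR = 2.29e-35, the D3 receptor gene *DRD3* at 31.2 ± 7.28 against 0.349 ± 0.0918 CPM, log2FC 6.06 ± 0.40, FDR = 5.18e-30, and *GPR3*, a relative of *GPR6*, at 7.13 ± 1.41 against 19.9 ± 4.1 CPM, log2FC -1.49 ± 0.15, FDR = 5.56e-17, each in 8 of 8 animals. *DRD1* (log2FC 2.96 ± 0.28), *OPRK1*, *CHRM4* and *GPR12* were the other higher receptors. Of the 13 G protein subunits, *GNG7*, the gamma subunit known from striatal adenosine and D1 signalling, was higher (116 ± 19.7 against 10.2 ± 2.15 CPM, log2FC 3.49 ± 0.20, FDR = 2.56e-36), while *GNAS*, which encodes the general stimulatory alpha subunit (684 ± 103 against 1946 ± 319 CPM, log2FC -1.56 ± 0.098, FDR = 6.07e-32), and *GNG2* (log2FC -2.25 ± 0.15) were lower. RGS proteins had 4 of 11 higher, led by *RGS14* (945 ± 175 against 50.5 ± 8.77 CPM, log2FC 4.16 ± 0.25, FDR = 3.59e-34) and *RGS8* (log2FC 3.03 ± 0.20), and 2 lower, *RGS6* (7.32 ± 1.94 against 84.5 ± 6.97 CPM, log2FC -3.69 ± 0.16, FDR = 1.63e-47) and *RGS4* (log2FC -2.37 ± 0.27).

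Of the 8 other adenylyl cyclases, *ADCY3* was higher (141 ± 18.6 against 46.7 ± 2.5 CPM, log2FC 1.49 ± 0.10, FDR = 1.96e-28) and 4 were lower, with *ADCY2* (29.2 ± 3.96 against 192 ± 18.8 CPM, log2FC -2.72 ± 0.14, FDR = 2.93e-40) and *ADCY8* (log2FC -1.79 ± 0.098) ahead. Of 13 other phosphodiesterases, *PDE7B* was higher (292 ± 32.4 against 78.2 ± 11.1 CPM, log2FC 1.89 ± 0.15, FDR = 1.66e-24) and 3 were lower, *PDE1A* (17.1 ± 6.19 against 75 ± 10.4 CPM, log2FC -2.54 ± 0.18, FDR = 5.91e-27), a close relative of *PDE1B*, *PDE4D* (log2FC -1.91 ± 0.23) and *PDE4C*. In protein kinase A, *PRKAR2A*, a regulatory subunit, was lower (log2FC -1.35 ± 0.18) and 6 of 7 genes were not called. Among phosphatases and their regulators, *PTPN5*, the striatum-enriched tyrosine phosphatase (1098 ± 112 against 195 ± 15.7 CPM, log2FC 2.48 ± 0.20, FDR = 1.03e-23), and *PPP1R1A*, a relative of *PPP1R1B* (log2FC 2.23 ± 0.18), were the highest of 3 higher genes, with *ARPP19*. *R3HDM1* (log2FC -1.62 ± 0.086), a relative of *ARPP21* that the list placed in this role, and *ENSA* (log2FC -1.42 ± 0.058) were lower. *PTPN5*, *DRD1* and *DRD2* are also on the marker list of medium spiny neurons.

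**Figure D5:**
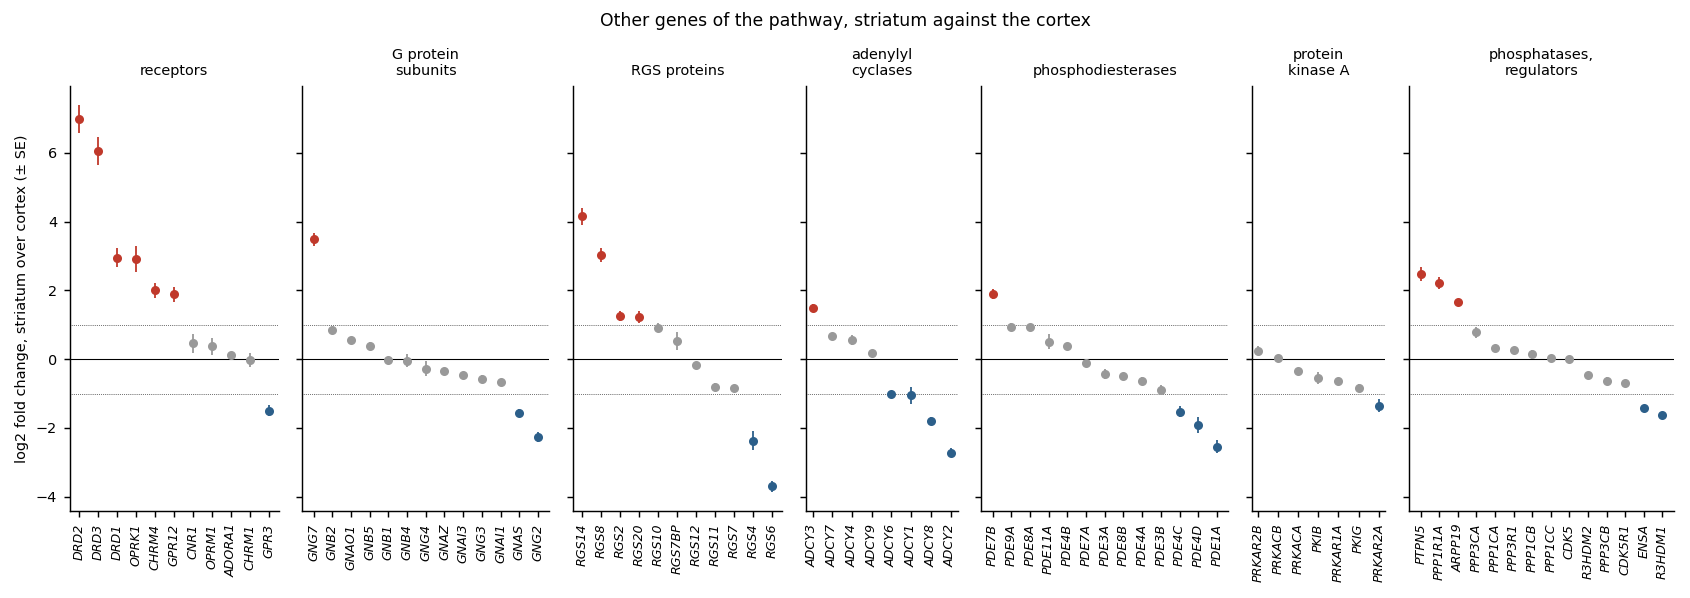
Fitted log2 fold change (± SE) of 77 other pathway genes in the striatum over the cortex, by role; red and blue points passed FDR < 0.05 and 2-fold (dotted lines), grey points did not. *DRD2* and *DRD3* lie highest and *RGS6* lowest, and every role except protein kinase A has genes called on both sides of 0.

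Within the striatum, 30 of the 77 list genes were lower and 12 higher in ACb than in CN (FDR < 0.05, median log2FC -0.11), and 26 lower and 25 higher than in PUT (median -0.052), where all 8 members were lower in both. Of all 14827 genes tested, 2473 (16.7%) were lower and 2638 higher in ACb than in CN. Against PUT, 3323 of them (22.4%) were lower in ACb and 3404 higher.

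Over the 51 sub-regions, Pearson's r of mean log2(CPM + 1) between 2 members ran from 0.0659 to 0.936 over the 28 pairs (median 0.7). These points share animals and libraries, and the correlations are a description. Over the 48 sub-regions outside the striatum the range was -0.86 to 0.83 (median 0.036), and 13 of 28 pairs were negative. The lowest was *PDE1B* with *RGS9* (r = -0.86) and the highest *PDE1B* with *ARPP21* (r = 0.83). Of 13228 genes with a symbol and at least 1 CPM in any sub-region, those most like the mean of the standardized members over 51 sub-regions were *AMBN* (r = 0.945), *SLC5A12* (r = 0.935), *RIC8B* (r = 0.922), *COCH* (r = 0.912) and *ACSBG2* (r = 0.909).

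For single members, the most like genes were *AMBN* (r = 0.966) and *PTPN7* (r = 0.960) for *ADORA2A*, *ADORA2A* (r = 0.922) and *HTR1D* (r = 0.907) for *GPR6*, and *SIX3* (r = 0.902) and *MAMU-DOA* (r = 0.901) for *RGS9*. They were *CCDC88C* (r = 0.953) and *ADORA2A* (r = 0.936) for *ADCY5*, *ACTN2* (r = 0.924) and *PTPN5* (r = 0.909) for *PDE1B*, and *RIC8B* (r = 0.931) and *SLC5A12* (r = 0.893) for *PDE10A*. For *PPP1R1B* they were *ASIC1* (r = 0.906) and *HMCES* (r = 0.825), and for *ARPP21* *RGS20* (r = 0.890) and *PDE1B* (r = 0.889). Members appear among the most like genes of *ADCY5*, *GPR6* and *ARPP21*.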

How the data were processed

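RNA-seq counts of 408 samples, 51 sub-regions of the brain from each of 8 rhesus macaques, were used. The authors used Trim Galore 0.4.4 for trimming, HISAT2 2.0.5 for alignment to Mmul 8.0.1 and HTSeq 0.6.1 for counting on Ensembl 91 genes, and deposited raw counts per gene, 7784678 to 31083490 per sample. How the counting treated strand and overlaps is not given in the sources used here, so reads of overlapping and antisense genes cannot be told apart. The members and lists were chosen with earlier results of these data known. A reference table named 17572 of 30807 genes, and 15 genes of the lists, *ADORA2A* among them, took their symbol from the study's supplement. *GNAL* was not matched.

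Tests used edgeR 4.0.16 in R 4.3.3, with TMM normalization, filterByExpr, the quasi-likelihood test and Benjamini-Hochberg adjustment over all genes tested. The fits were the striatum (24 libraries), 21 groups with the cortex summed over 31 sub-regions (168 libraries), 5 lobes (40 libraries), and 4 mid-aged against 4 young or 4 female against 4 male animals with the other factor as a covariate. The animal was a block within animals. Deviations from the group means in the striatum correlated within an animal (mean r = 0.469, lowest 0.100, 24 pairs). Between different animals the mean r was -0.0668 (highest 0.318, 168 pairs), so the ranges overlapped. The pairing is that of the animal in the labels. Alternatives were DESeq2 1.42.0, its size factors, the study's detection rule (a count above 1 in at least 3 samples), no block or covariate, other sets of groups, 1 gyrus as the cortex and each animal left out. The tests were checked on simulated counts in which all genes had the same dispersion and only genes above a low read count were changed. Members with few reads, as *GPR6* in SN, or a wide spread between animals, as *PDE10A* in ACb, were not covered by that check.

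All members are named, with, for each role of the pathway list, up to 2 higher and 2 lower called genes of the largest fold, and the genes most correlated with the members. Other names complete a count of 5 or fewer.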

Additional observations from a re-analysis of the deposited data

Results flagged for a closer look

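The level of each gene in each of 21 groups was checked for an animal that stood apart from the other 7, by Dixon's test at its 95% critical value. It marked 23 of the sets of 8 values (13.7%). The sets share libraries and the CPM were not log-transformed, so this share cannot be set against the 1 in 20 of independent, normal values.

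GP of animal 3 was marked for all 8 genes, as the highest library each time. It held 223 CPM of *ADCY5*, 56.3 of *ADORA2A*, 934 of *ARPP21*, 16.6 of *GPR6*, 20.6 of *PDE10A*, 85.9 of *PDE1B*, 408.2 of *PPP1R1B* and 21 of *RGS9*. The markers of medium spiny neurons moved with these values, and the results for GP stand in the report with and without this animal.

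HTHA of animal 6 was marked as high for *ARPP21* (306 CPM) and *PDE1B* (74.9 CPM), in the library with the high sum of cortical projection neuron markers. HTHA of animal 3 was high for *ADORA2A* (7.76 CPM).

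Animal 4 was high in CBC for *RGS9* (62.6 CPM) and *PPP1R1B* (311 CPM), in SN for *PPP1R1B* (205 CPM), in MO for *ADORA2A* (8.06 CPM) and in CN for *GPR6* (167 CPM). Animal 3 was high in SN for *ARPP21* (123 CPM), animal 6 in AMY for *GPR6* (3.84 CPM), animal 7 in OB for *ARPP21* (310.4 CPM) and animal 10 in PIT for *ARPP21* (35.5 CPM). In SN, *GPR6* was marked for animal 2 (0.127 CPM), on 2 reads where the other libraries had 0. The low values were *PPP1R1B* in VTA of animal 2 (66.1 CPM) and *ADCY5* in the cortex of animal 10 (88.4 CPM).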

How the results depend on the processing

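Of 95 member comparisons past their threshold, 77 kept direction and call in every alternative run that tested them. Runs in which the filter on low counts removed the gene were not counted as a loss. *GPR6* in GP over the cortex reversed, from log2FC 0.77 to -0.92 without animal 3 (-0.92 to 1.01 over the animals left out) and to -0.36 with only GP and the cortex in the fit. Among the pairs of groups, only the groups compared in a fit gave 6 higher and 1 lower of 43 tested, against 10 and 0 of 48, DESeq2 gave 1 lower, and leaving out each animal in turn gave 0 to 2 lower. Without the replicate block the pairs had 1 lower, the lobes had 10 past the threshold, 4 of them higher, against 17 and 9, and *ADORA2A* between CN and PUT had an FDR of 0.0542 by edgeR. The striatum had 13 of 24 with all 21 groups in the fit, against 18. The cause was not tested. With each animal left out, the counts were 17 to 18 in the striatum, 48 to 52 of 136 outside it, 15 to 20 of 40 in the lobes and 30 to 31 of 77 in the pathway list, and age and sex gave 0. The 3 striatal sub-regions stayed above all other groups for 8 of 8 genes under each scaling. At 50 reads or fewer over 8 libraries, as for *GPR6* in SN, CBV and CA1, depth limits the folds.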
